A study of Rattus norvegicus with 6 samples.

Results

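Collagen chain genes encode the polypeptides that fold, 3 at a time, into the triple helices of the extracellular matrix. The members were all rows of the count files whose symbol consists of Col, a number, the letter a and a number, which gave 44 of 31011 genes. They were measured by RNA sequencing in 6 libraries of rat cells, 3 treated with a control siRNA (labelled siNT) and 3 with an siRNA against eIF3m (labelled si3m), a subunit of translation initiation factor 3. All 6 libraries came from cells labelled as myocardial and as NRVM, derived from embryonic rat heart muscle and grown in DMEM with fetal bovine serum. Whether replicates were grown as independent cultures is not in the labels, so every p-value below reflects the variation among these libraries alone, and that variation could be purely technical.

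Fibrillar collagens (types I, II, III, V, XI, XXIV and XXVII) form the cable-like fibrils that give heart tissue its tensile strength. Type IV forms the sheet-like network of basement membranes around muscle cells and vessels, type VI forms beaded filaments, type VIII a short-chain network, and fibril-associated collagens decorate fibril surfaces. In the heart most fibrillar collagen is made by fibroblasts, and cells in culture also make type IV and type V chains. Chains are made in the endoplasmic reticulum, where they are hydroxylated and folded before they are secreted, trimmed and crosslinked.

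Levels are given as CPM, the count of a gene per 1000000 counts of its library after TMM scaling, and the values of a group follow the order of replicates 1, 2 and 3. Transcript lengths were not used, so a CPM is compared between libraries and not between genes. Library totals ran from 2156186 counts (eIF3m siRNA replicate 2) to 10061575 (eIF3m siRNA replicate 1), and 3 counts were worth 0.286 to 1.32 CPM. Eif3m itself stood at 137, 136 and 141 CPM in controls and at 91.7, 83.9 and 87.3 CPM after eIF3m siRNA. Several defining markers of heart muscle cells were nearly absent: Myh6, a cardiac myosin, lay at 0.638 to 0.849 CPM in controls, and Myl2, a ventricular light chain, had no count outside control replicate 3. Others were present, such as Tnnt2, cardiac troponin T, at 359 to 376 CPM in controls. The 14 heart muscle markers summed to 998 to 1012 CPM in controls and 430 to 460 CPM after eIF3m siRNA. In controls that sum came mainly from Casq2, Tnnt2 and Tnnc1, whose means were 436, 365.5 and 153 CPM. The 8 markers of smooth muscle and pericytes summed to 5654 to 5794 CPM in controls and 3695 to 3887 CPM after eIF3m siRNA. In controls this sum came mainly from Acta2, Tagln and Pdgfrb, whose means were 3520, 1256 and 730 CPM. These genes, with Cnn1 and Myh11, were lower after eIF3m siRNA. Notch3 went from 26.0 to 27.3 CPM in controls up to 68.9 to 71.8 CPM, and Cspg4 from 2.43 to 3.54 up to 5.63 to 7.51 CPM. Rgs5 had no count in controls. The 12 of fibroblasts summed to 1102 to 1141 and 974 to 1079 CPM. In controls the fibroblast sum came mainly from Thy1, Postn and Mfap5, whose means were 481, 368 and 269 CPM. Dcn, Lum and Pdgfra averaged 1.08, 0.655 and 0.455 CPM there. After eIF3m siRNA Thy1 lay lower, at 326 to 333 CPM, and so did Mfap5, at 149 to 165 CPM. Postn lay higher, at 443 to 485 CPM. The 11 skeletal myoblast markers summed to 357 to 374 CPM in controls and 269 to 302 CPM after eIF3m siRNA. Among these 11, Cdh15 averaged 224 CPM, Myog 19.3 CPM, Myod1 15.9 CPM and Myf5 0.0472 CPM in controls, while Pax7 had no count. The part of these cell types in the collagen values was not tested. Library eIF3m siRNA replicate 1 stood apart. The 9 blood markers found in the files summed to 6250 CPM there, against 52.5 to 234 CPM in the other eIF3m siRNA libraries and 33.4 to 79.4 CPM in controls. The 11 endothelial markers summed to 187 CPM there, against 13.9 to 22.96 and 9.22 to 16.3 CPM. Every change below is therefore given for all 6 libraries and again without that library.

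Collagen transcripts moved in both directions. The fibrillar chain genes Col1a1, Col3a1, Col5a3 and Col27a1 were higher after eIF3m siRNA, and the expressed chains of types IV and VIII, with Col5a1, Col5a2, Col11a1 and Col16a1, were lower. Of 44 members, 27 passed the filter on low counts, and 6 of them rose and 9 fell (edgeR quasi-likelihood test, Benjamini-Hochberg adjusted p under 0.05 over 12724 genes). Among all genes tested, 17.4% rose, 21.2% fell and 38.7% did either, against 22.2% and 33.3% of the members tested that rose and fell. Without eIF3m siRNA replicate 1, 4 rose and 11 fell of 27, or 14.8% and 40.7%, where 15.0% and 19.1% of all 12925 genes did (34.0% in either direction). With no scaling factors and without that library, the split was 6 higher and 8 lower. The calls shared in direction by both fits were 13, and those that differed belonged to Col1a2 and to type VI. On TMM-scaled CPM the groups did not overlap for 4 of the 27 members tested toward higher and for 9 of 27 toward lower values, where 23.3% and 25.3% of genes tested were so separated. Without that library the counts were 5 and 11 of 27, against 27.5% and 29.2%. The median log2 fold change of the members was -0.12, beside 0.013 for all genes tested, and -0.15 beside 0.015 without the library. In bulk RNA, fewer cells that make a chain and less of its RNA per cell cannot be told apart.

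**Figure D1:**
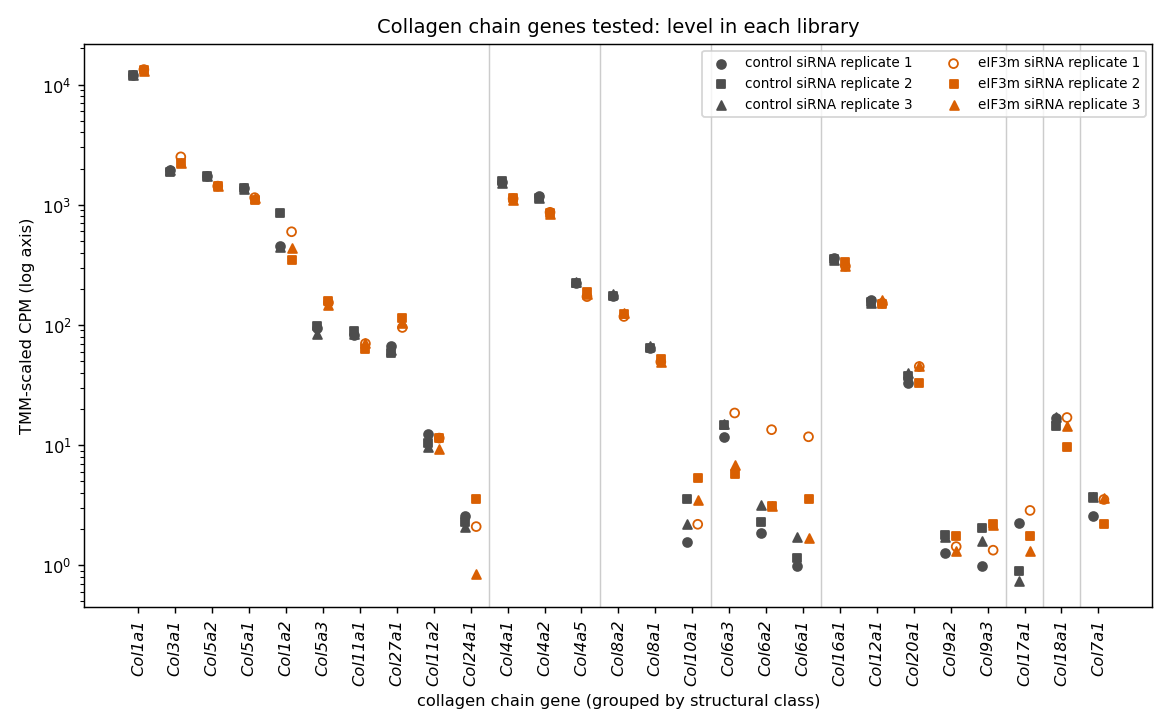
TMM-scaled CPM of the 27 collagen chain genes tested (log axis), 1 point per library, grouped by structural class; grey points are control siRNA, orange points eIF3m siRNA, shapes are replicates, and open orange circles mark eIF3m siRNA replicate 1. Replicates lie close together for most chains above 100 CPM, but not for Col1a2, where control replicate 2 lies above the others, while open circles stand high for Col6a1, Col6a2 and Col6a3.

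Type IV chains fell together. Of the 6 chain genes, the 3 that passed the filter were all lower, and Col4a3, Col4a4 and Col4a6 had at most 8 counts in any library. Col4a1 and Col4a2 encode the alpha 1 and alpha 2 chains of the common basement membrane trimer. Col4a1 stood at 1547, 1581 and 1527 CPM in controls and at 1124, 1133 and 1088 CPM after eIF3m siRNA. Its groups were separated by far more than the spread within either of them. The log2 fold change was -0.48 ± 0.02 SE (adjusted p = 4.09e-10), and -0.48 ± 0.03 without replicate 1 (adjusted p = 6.50e-11). Col4a2 stood at 1175, 1134 and 1137 CPM in controls and at 866, 856 and 840 CPM after eIF3m siRNA. It fell by 0.43 on the log2 scale (SE 0.03, adjusted p = 4.40e-09), and by 0.43 without replicate 1. All eIF3m siRNA libraries thus lay below all controls for both partner chains. Col4a5, which encodes the alpha 5 chain of a second type IV trimer, was at 224, 223 and 226 CPM in controls and at 172, 188 and 182 CPM after eIF3m siRNA. The smaller fall of Col4a5 (-0.32 ± 0.05 SE, adjusted p = 1.04e-04) was -0.28 ± 0.05 without replicate 1 (adjusted p = 5.71e-05).

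Col4a1 and Col4a2 lie head to head and are transcribed away from each other from a shared promoter. The stretch between their RefSeq start sites is shown because both of its genes fell by a similar amount. It covers 76 bases at chr16:84885521-84885596 of assembly GRCr8, printed on the plus strand, on which Col4a1 is read; GRCr8 is not the build of the count files. Capitals mark matches to GGGCGG, the core of the GC box, CCAAT or TATAAA, each searched on both strands; no matches overlap in the sequences printed here.
Col4a1/Col4a2: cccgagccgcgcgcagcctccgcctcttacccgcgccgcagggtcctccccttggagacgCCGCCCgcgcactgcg
The stretch holds 1 match to GGGCGG and none to CCAAT or TATAAA. In stretches of the same length before 33469 RefSeq starts, GGGCGG was found in 18.1%, CCAAT in 12.99% and TATAAA in 4.61%. The 250 bases before either start reach past the printed stretch. They held 1 match to CCAAT for Col4a1 and 1 for Col4a2, with 1 and 2 matches to GGGCGG. Upstream sequences were found for 35 of the 44 members, among them 12 of the 15 called in 6 libraries. The called members without one were Col1a1, Col3a1 and Col6a2, all called higher. GGGCGG lay within 250 bases upstream of 8 of the 9 members that fell and of 2 of the 3 with a sequence that rose. It lay there for 5 of the 10 that did not pass and for 4 of the 13 not tested. Among all RefSeq windows of that length the share was 30.5%. CCAAT lay there for 3 of the 9 that fell and 1 of the 3 that rose. It also lay there for 4 of the 10 that did not pass and 3 of the 13 not tested. TATAAA lay there for 0, 0, 3 and 1 of these members. Among all RefSeq windows the shares of CCAAT and TATAAA were 34.0% and 12.9%. Those windows were not limited to genes tested here and were not matched for their content of G and C. The share among genes tested was not computed. Col4a1 and Col4a2 count as separate members here although their windows share the stretch above. These matches are descriptions of letters and not of binding.

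Type VIII chains, which build short-chain networks in vessel walls and other remodelling tissue, were lower as well. Col8a2 was measured at 175, 173 and 181 CPM in controls and at 118, 123 and 126 CPM after eIF3m siRNA. The libraries of the groups did not overlap, and the log2 fold change was -0.53 ± 0.05 SE (adjusted p = 7.13e-07; -0.49 ± 0.05 and adjusted p = 1.84e-07 without replicate 1). Col8a1 stood at 64.1, 64.2 and 67.0 CPM in controls and at 49.3, 51.7 and 49.4 CPM after eIF3m siRNA, again with no overlap. Its log2 fold change was -0.39 ± 0.06 SE (adjusted p = 8.62e-05; -0.37 ± 0.08 and adjusted p = 0.00111 without replicate 1). Col10a1, the chain of the related network in growth cartilage, was at 2.45 ± 1.03 CPM in controls and 3.66 ± 1.56 CPM after eIF3m siRNA (SD, n = 3 per group), with overlapping libraries, and did not pass (0.40 ± 0.39 SE, adjusted p = 0.454; 0.72 ± 0.40 and adjusted p = 0.184 without replicate 1).

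The type V chains took opposite directions. Type V collagen co-assembles with type I and limits fibril diameter; Col5a1 and Col5a2 encode the chains of its usual trimer, and Col5a3 encodes a further chain that can join them. Col5a2 lay at 1745, 1738 and 1733 CPM in controls and at 1429, 1441 and 1439 CPM after eIF3m siRNA. Col5a1 lay at 1375, 1377 and 1355 CPM in controls and at 1146, 1099 and 1144 CPM after eIF3m siRNA. Both chains were lower in every eIF3m siRNA library than in any control. They fell by nearly the same amount, Col5a1 by 0.28 (SE 0.02, adjusted p = 1.78e-07) and Col5a2 by 0.28 on the log2 scale (SE 0.02, adjusted p = 9.33e-09). Without replicate 1 the falls were 0.28 and 0.27. Col5a3 went the other way, from 94.8, 97.6 and 84.4 CPM to 153, 158 and 148 CPM. Its log2 fold change was 0.72 ± 0.06 SE (adjusted p = 1.54e-07) and 0.72 ± 0.06 without replicate 1 (adjusted p = 2.07e-08), a 1.65-fold and a 1.64-fold rise. The count ratio of Col5a3 to Col5a1, chosen after these values were seen and therefore not tested, was 0.0689, 0.0709 and 0.0623 in controls and 0.134, 0.144 and 0.129 after eIF3m siRNA. The log2 ratio was thus 1.009 higher after eIF3m siRNA, and 1.02 higher without replicate 1.

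Col27a1 encodes a fibrillar chain best known from cartilage. It stood at 66.5, 59.0 and 61.5 CPM in controls and at 95.2, 115 and 103 CPM after eIF3m siRNA. Replicate 1 was the lowest of its group and still lay above all controls. The log2 fold change was 0.71 ± 0.07 SE (adjusted p = 7.33e-07) and 0.78 ± 0.07 without replicate 1 (adjusted p = 5.56e-08). Col11a1, whose chain forms type XI fibrils and can mix with type V chains, fell from 82.8, 88.7 and 83.7 CPM to 70.0, 62.7 and 71.0 CPM. Its change was -0.30 ± 0.06 SE (adjusted p = 6.69e-04), and -0.31 ± 0.07 without replicate 1 (adjusted p = 0.00277). Its partner Col11a2 was at 10.8 ± 1.36 CPM in controls and 10.7 ± 1.28 CPM after eIF3m siRNA, and did not pass (-0.023 ± 0.17 SE, adjusted p = 0.935; -0.11 ± 0.20 and adjusted p = 0.698 without replicate 1). Col24a1, another minor fibrillar chain, was near 2 CPM in both groups (2.31 ± 0.229 and 2.16 ± 1.35) and did not pass (-0.34 ± 0.42 SE, adjusted p = 0.561; -0.55 ± 0.54 and adjusted p = 0.471 without replicate 1).

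The 250 bases before the RefSeq starts of Col5a3 and Col27a1 are shown because these members were called higher by more than 1.5-fold in both fits, and those of Col1a2 because its level varied between libraries as described next. Each is printed 5′ to 3′ on the strand of its gene, with the same motifs in capitals. Col5a3 is at chr8:27625949-27626198 (minus strand), Col27a1 at chr5:81662658-81662907 (plus strand) and Col1a2 at chr4:33518307-33518556 (plus strand), all in GRCr8.
Col5a3: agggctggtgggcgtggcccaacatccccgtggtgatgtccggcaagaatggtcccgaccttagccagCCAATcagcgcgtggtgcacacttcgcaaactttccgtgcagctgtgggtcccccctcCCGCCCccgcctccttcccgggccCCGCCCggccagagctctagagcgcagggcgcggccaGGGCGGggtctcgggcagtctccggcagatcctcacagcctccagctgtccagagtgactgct
Col27a1: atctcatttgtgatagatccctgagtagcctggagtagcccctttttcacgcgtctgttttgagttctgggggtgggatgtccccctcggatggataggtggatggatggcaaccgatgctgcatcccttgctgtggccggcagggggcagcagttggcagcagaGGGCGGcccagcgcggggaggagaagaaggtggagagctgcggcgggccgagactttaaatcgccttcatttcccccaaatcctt
Col1a2: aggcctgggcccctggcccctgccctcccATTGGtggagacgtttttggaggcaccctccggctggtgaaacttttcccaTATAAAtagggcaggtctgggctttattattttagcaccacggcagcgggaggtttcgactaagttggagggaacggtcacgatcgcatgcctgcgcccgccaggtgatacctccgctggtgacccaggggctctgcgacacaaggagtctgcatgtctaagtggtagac
Col5a3 holds 3 matches to GGGCGG and 1 to CCAAT, and Col27a1 holds 1 match to GGGCGG and none to the others. Col1a2 holds 1 match to CCAAT, read here as its reverse complement, 221 bases before the RefSeq start. It also holds 1 match to TATAAA, 170 bases before that start, and none to GGGCGG. Whether transcription begins at the RefSeq start in these cells was not tested, so part of the printed stretch may be transcribed. Among all RefSeq windows of this length, CCAAT was found in 34.0% and TATAAA in 12.9%.

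Of types I and III, the main fibril formers of heart scar and interstitium, Col1a1 and Col3a1 rose, while Col1a2 had no settled direction. Col1a1, whose chain fills 2 of the 3 places in the type I helix, stood at 12082, 12062 and 11914 CPM in controls and at 13338, 13329 and 13028 CPM after eIF3m siRNA. The rise was small beside that of Col5a3 but exceeded the spread of both groups, which did not overlap. The log2 fold change of Col1a1 was 0.14 ± 0.0078 SE (adjusted p = 2.24e-09), an increase of 10.1%, and 0.14 ± 0.01 without replicate 1 (adjusted p = 5.03e-08). Col3a1, which forms a helix of 3 identical chains, was at 1939, 1891 and 1943 CPM in controls and at 2505, 2236 and 2227 CPM after eIF3m siRNA. Replicate 1 was the highest library for this gene, and the other eIF3m siRNA libraries also lay above every control. Its log2 fold change was 0.27 ± 0.03 SE (adjusted p = 1.06e-05), and 0.22 ± 0.02 without replicate 1 (adjusted p = 3.28e-07). Col3a1 and Col5a2 are neighbours in RefSeq gene order, and they moved in opposite directions.

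Col1a2, the gene of the other type I chain, did not follow Col1a1. It stood at 451, 849 and 443 CPM in controls and at 596, 345 and 440 CPM after eIF3m siRNA. The groups overlapped, and control replicate 2 was 1.88 times the higher of the other controls. Among 2214 genes with a control mean over 100 CPM, Col1a2 was the only one for which that library was at least 1.5 times both other controls. With 6 libraries the log2 fold change of Col1a2 was -0.33 ± 0.21 SE and did not pass (adjusted p = 0.234). Without eIF3m siRNA replicate 1 it was -0.53 ± 0.18 and passed (adjusted p = 0.0304), while without control replicate 2 it was 0.046 (adjusted p = 0.855). With both of these libraries left out, a choice made after the data were seen, it was -0.15 ± 0.07 SE and did not pass (adjusted p = 0.119). A direction for Col1a2 therefore depended on which single library was left out.

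**Figure D2:**
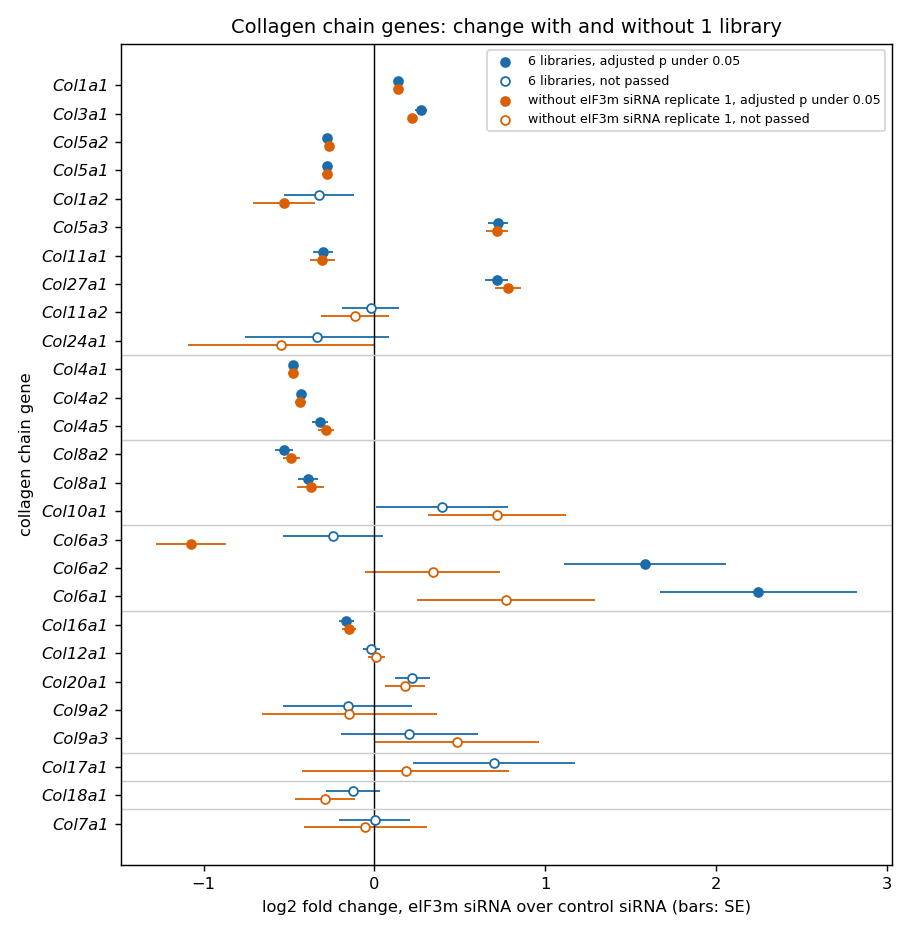
Log2 fold change (eIF3m siRNA over control siRNA) with SE bars for the 27 members tested; blue is the fit of 6 libraries, orange the fit without eIF3m siRNA replicate 1, and filled points have adjusted p under 0.05. Col1a2, Col6a1, Col6a2 and Col6a3 are the members whose call differs between the fits, and the points of the other called members lie close together.

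Collagen counts as a whole took a larger part of the raw library counts after eIF3m siRNA. These shares carry no TMM scaling, whose factors were 0.948 to 0.953 in controls and 1.04 to 1.06 after eIF3m siRNA. With no scaling factors the median log2 fold change of all genes tested was 0.16. A rise on raw counts was thus not particular to collagen. The 44 members held 2.06%, 2.09% and 2.02% of the counts in controls and 2.33%, 2.28% and 2.27% after eIF3m siRNA. All eIF3m siRNA libraries were above all controls. The means were 2.06% ± 0.0338 and 2.29% ± 0.0310 (SD, n = 3 per group; two-sided exact permutation test, p = 0.1, the smallest that 3 libraries against 3 can give). Without replicate 1 the eIF3m siRNA mean was 2.28% (exact p = 0.1, again the smallest possible). With Col1a1, Col1a2 and Col3a1 left out, the direction turned: the remaining chains held 0.677% ± 0.00711 in controls and 0.610% ± 0.00111 after eIF3m siRNA (exact p = 0.1), or 0.609% without replicate 1.

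The make-up of the collagen counts shifted toward Col1a1 and Col3a1. Col1a1 supplied 55.9%, 55.0% and 55.8% of all collagen counts in controls and 59.8%, 61.4% and 60.7% after eIF3m siRNA. Col3a1 went from 8.89% ± 0.247 to 10.6% ± 0.520 (10.3% without replicate 1). Col4a1 and Col4a2 together went from 12.5% ± 0.107 to 9.03% ± 0.123 (9.07% without replicate 1), and Col5a1 and Col5a2 together from 14.4% ± 0.146 to 11.8% ± 0.250 (11.9% without replicate 1). In none of these 4 groups of chains did the libraries of the 2 conditions overlap. These shares sum to a fixed total, so they are not independent of each other and were not tested.

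**Figure D3:**
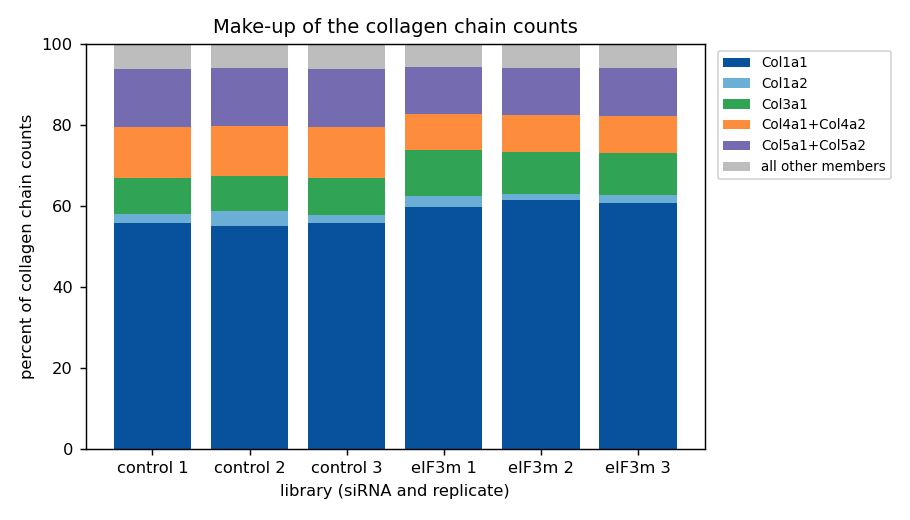
Stacked bars of the percent of all collagen chain counts taken by Col1a1, Col1a2, Col3a1, the Col4a1 and Col4a2 pair, the Col5a1 and Col5a2 pair and all other members, 1 bar per library. The Col1a1 part grows from 55.0% to 55.9% in controls to 59.8% to 61.4% after eIF3m siRNA, and the type IV pair shrinks.

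Ratios of chains within a library do not depend on scaling. Of 8 pairs planned, 6 had at least 10 counts of both chains in every library; both pairs of type VI did not. For the partners Col4a1 and Col4a2 the count ratio was 1.32, 1.39 and 1.34 in controls and 1.30, 1.32 and 1.30 after eIF3m siRNA, and the groups overlapped. The log2 ratio differed by -0.049 (-0.045 without replicate 1; two-sided exact permutation test, p = 0.2, 0.3 adjusted over 6 pairs). For Col5a1 and Col5a2 the ratio was 0.788, 0.792 and 0.782 in controls and 0.802, 0.762 and 0.795 after eIF3m siRNA, a log2 difference of -0.0022 (exact p = 1, adjusted p = 1; -0.016 without replicate 1). The partner chains of types IV and V thus moved with ratios that overlapped between the groups. For Col8a1 over Col8a2 the ratio was 0.367, 0.371 and 0.370 in controls and 0.419, 0.419 and 0.392 after eIF3m siRNA, with no overlap (log2 difference 0.15, exact p = 0.1, adjusted p = 0.2; 0.13 without replicate 1). For Col1a1 over Col1a2 it was 26.8, 14.2 and 26.9 in controls and 22.4, 38.6 and 29.6 after eIF3m siRNA, with overlap (log2 difference 0.44, exact p = 0.4, adjusted p = 0.48; 0.64 without replicate 1). Between types, Col3a1 over Col1a1 was higher in every eIF3m siRNA library (log2 difference 0.13, exact p = 0.1, adjusted p = 0.2; 0.081 without replicate 1). Col5a1 over Col1a1 was lower in every one (log2 difference -0.42, exact p = 0.1, adjusted p = 0.2; -0.42 without replicate 1). With 3 libraries against 3 none of these tests could reach 0.05.

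**Figure D4:**
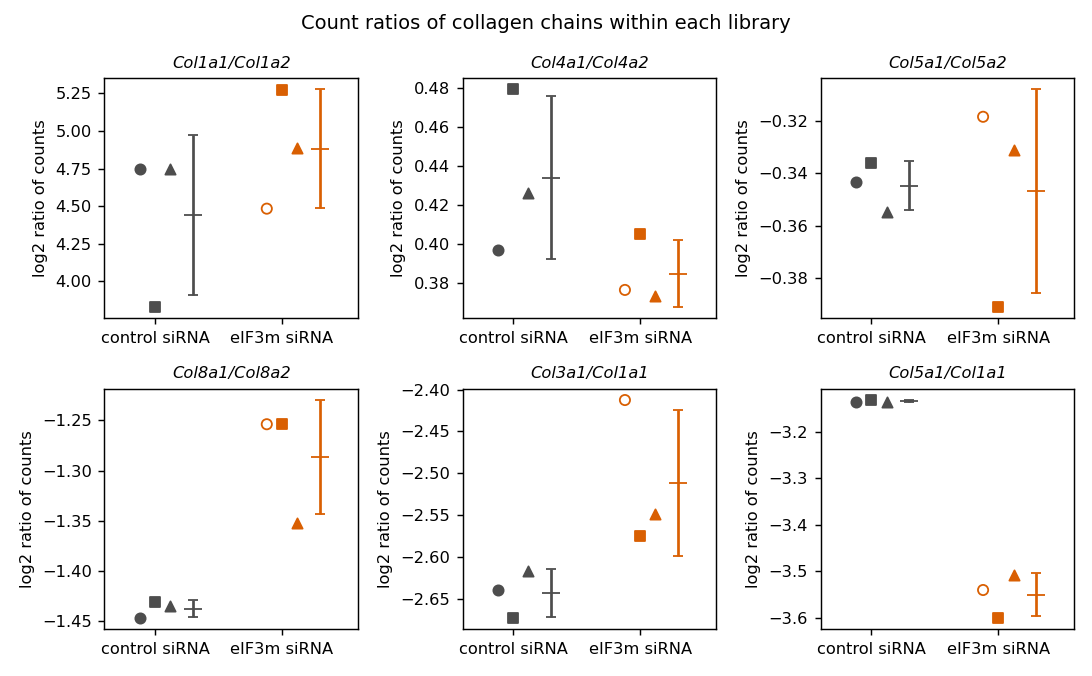
Log2 ratio of the raw counts of 2 chains in each library for the 6 pairs, with mean and SD beside the points; grey is control siRNA, orange eIF3m siRNA, circles, squares and triangles are replicates 1, 2 and 3, and the open circle is eIF3m siRNA replicate 1. The 3 controls of Col5a1/Col1a1 lie within an SD of 0.0024 and above all eIF3m siRNA libraries, while the points of Col1a1/Col1a2 overlap; the vertical axes differ between panels and do not start at 0.

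Type VI chains, which assemble from 3 different chains into beaded filaments and are abundant in fibroblasts, were low in these cells and rested on 1 library. Col6a1 had 7, 9 and 14 counts in controls and 123, 8 and 14 after eIF3m siRNA, or 0.990, 1.15 and 1.72 CPM against 11.7, 3.53 and 1.68 CPM. Col6a2 had 13, 18 and 26 counts in controls and 141, 7 and 26 after eIF3m siRNA, or 1.84, 2.30 and 3.20 CPM against 13.4, 3.09 and 3.12 CPM. Apart from replicate 1, the eIF3m siRNA libraries lay within the range of the controls for Col6a2, and for Col6a1 replicate 3 did so while replicate 2 lay above it on 8 counts. With 6 libraries both were called higher, Col6a1 at 2.25 ± 0.58 SE (adjusted p = 0.00612) and Col6a2 at 1.58 ± 0.47 SE (adjusted p = 0.0155). Without replicate 1 neither passed (0.77 ± 0.52, adjusted p = 0.273, and 0.34 ± 0.39, adjusted p = 0.544). Col6a3 had 83, 116 and 121 counts in controls and 194, 13 and 57 after eIF3m siRNA, or 11.7, 14.8 and 14.9 CPM against 18.5, 5.74 and 6.84 CPM. Replicate 1 was above and the other eIF3m siRNA libraries were below all controls. Col6a3 did not pass with 6 libraries (-0.24 ± 0.29 SE, adjusted p = 0.551) and was lower without replicate 1 (-1.07 ± 0.20, adjusted p = 3.03e-04). Col6a4, Col6a5 and Col6a6, the genes of alternative chains, had at most 12 counts in any library and were not tested.

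Col14a1, a fibril-associated chain of fibroblasts, showed the same library most plainly. It had 9, 3 and 2 counts in controls, 294 in eIF3m siRNA replicate 1 and 3 in each of the other eIF3m siRNA libraries, and it did not pass the filter. Col15a1, a basement membrane chain of vessels and muscle, had 15 counts in that library and at most 1 in any other. In the same library the fibroblast markers Dcn and Pdgfra stood at 55.4 and 8.77 CPM, against at most 2.21 and 1.44 CPM in the other libraries, while the whole list of fibroblast markers summed to 1079 CPM there and to 974 to 984 CPM in the other eIF3m siRNA libraries. Of its 12 genes, 9 were tested. In 6 libraries 7 rose and 2 fell, where 17.4% and 21.2% of all genes tested did. Without replicate 1, 3 rose and 2 fell, where 15.0% and 19.1% of all genes did. The endothelial marker Pecam1 was at 11.1 CPM there and at most 0.246 CPM elsewhere. Tcf21, a defining marker of cardiac fibroblasts, was at 0 outside that library and at 0.0953 CPM in it. The 11 leukocyte markers summed to 57.0 CPM in that library, 20.8 to 23.03 CPM in the other eIF3m siRNA libraries and 28.8 to 31.7 CPM in controls. The part of these cell types in the type VI and type XIV values was not tested.

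**Figure D5:**
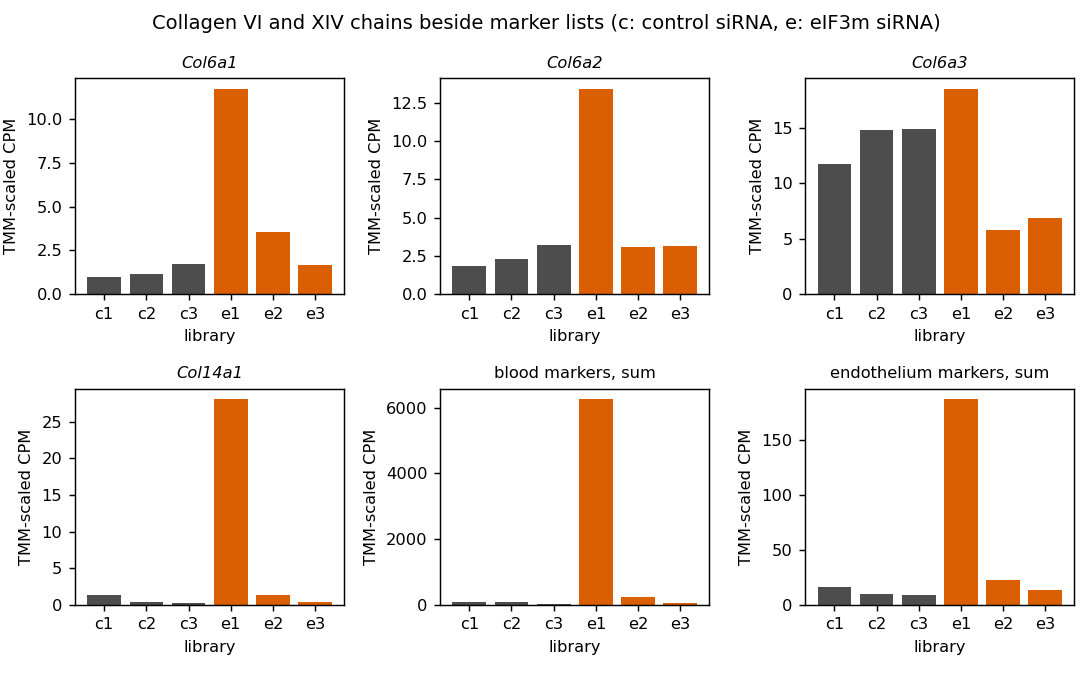
TMM-scaled CPM in each library (c1 to c3 control siRNA, e1 to e3 eIF3m siRNA) of Col6a1, Col6a2, Col6a3 and Col14a1 and of the summed blood and endothelial marker lists; bars start at 0 and the axes differ between panels. All 6 panels are highest in eIF3m siRNA replicate 1, and for Col6a3 the other eIF3m siRNA libraries lie below the controls.

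Among the other fibril-associated chains, only Col16a1 was called. It was at 359, 355 and 349 CPM in controls and at 308, 332 and 310 CPM after eIF3m siRNA, with no overlap. The fall was slight (-0.16 ± 0.04 SE, adjusted p = 0.00833; -0.15 ± 0.04 and adjusted p = 0.0106 without replicate 1), and with no scaling factors it was -0.020 (adjusted p = 0.741). Col12a1, which binds type I fibrils under mechanical load, was at 160, 155 and 153 CPM in controls and at 152, 149 and 160 CPM after eIF3m siRNA. Its libraries overlapped and it did not pass (-0.018 ± 0.05 SE, adjusted p = 0.840; 0.012 ± 0.05 and adjusted p = 0.883 without replicate 1). Col20a1 was at 36.7 ± 3.26 CPM in controls and 41.0 ± 7.17 CPM after eIF3m siRNA and did not pass (0.22 ± 0.10 SE, adjusted p = 0.0991; 0.18 ± 0.12 and adjusted p = 0.254 without replicate 1). It passed without eIF3m siRNA replicate 2 (0.29, adjusted p = 0.0178) and with no scaling factors (0.37, adjusted p = 0.00862). The type IX chains Col9a2 and Col9a3, partners of cartilage fibrils, were under 2 CPM in the mean of either group and did not pass (-0.16 ± 0.38 SE, adjusted p = 0.778, and 0.20 ± 0.40 SE, adjusted p = 0.725; -0.15 and 0.48 without replicate 1).

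Col18a1, a basement membrane chain whose cleaved end is endostatin, was at 16.7, 14.3 and 17.2 CPM in controls and at 16.97, 9.71 and 14.5 CPM after eIF3m siRNA. Its groups overlapped and it did not pass (-0.12 ± 0.16 SE, adjusted p = 0.571; -0.29 ± 0.18 and adjusted p = 0.222 without replicate 1). Col7a1, the chain of anchoring fibrils in skin, was at 3.31 ± 0.663 CPM and 3.11 ± 0.783 CPM and did not pass (log2 fold change 0.0003 ± 0.21 SE, adjusted p = 0.999; -0.054 ± 0.36 and adjusted p = 0.930 without replicate 1). Col17a1, a membrane-spanning chain of epithelia, was at 1.30 ± 0.840 CPM and 1.98 ± 0.793 CPM and did not pass (0.70 ± 0.47 SE, adjusted p = 0.266; 0.18 ± 0.61 and adjusted p = 0.849 without replicate 1). Of the 12 members tested that did not pass in 6 libraries, 6 had a mean under 5 CPM in both groups, where their SE reached 0.47.

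The filter removed 17 members. They were Col2a1, Col4a3, Col4a4, Col4a6, Col6a4, Col6a5, Col6a6, Col9a1, Col13a1, Col14a1, Col15a1, Col19a1, Col22a1, Col23a1, Col25a1, Col26a1 and Col28a1. Other than Col14a1, none had more than 15 counts in any library, and outside eIF3m siRNA replicate 1 none had more than 11. For 12 of the 17 the highest count was in that library alone, which was also the most deeply counted. Col2a1, the cartilage fibril chain, had 4, 10 and 9 counts in controls and 12, 2 and 11 after eIF3m siRNA. Col22a1, a chain of muscle-tendon junctions, had none in controls and 4, 2 and 3 after eIF3m siRNA, which lies at or about the 3 counts taken as the floor. Col6a6 likewise had none in controls and 4, 1 and 1 after eIF3m siRNA, and these 2 were the untested members whose groups did not overlap. Col9a1 had no count in any library.

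Genes that fold, export and crosslink collagen were mostly lower. Of 40 symbols listed, 34 were found and 31 tested, and 2 rose and 23 fell, where 17.4% and 21.2% of all genes tested did. The median log2 fold change was -0.42 beside 0.013 for all genes tested. Without replicate 1, 1 rose and 21 fell, with a median of -0.42, where 15.0% and 19.1% of all genes did. Pcolce, the enhancer of procollagen C-terminal trimming, was at 3255 ± 69.9 CPM in controls and 1851 ± 23.7 CPM after eIF3m siRNA (SD, n = 3 per group) and had the lowest p of the list (-0.81 ± 0.02 SE; -0.82 without replicate 1). P4hb, the beta subunit of prolyl 4-hydroxylase, fell by 0.89, Serpinh1, the collagen chaperone Hsp47, by 0.46 and Plod3, a lysyl hydroxylase, by 0.97 on the log2 scale (0.91, 0.47 and 0.97 without replicate 1). The members that rose were P4ha3, a catalytic subunit of prolyl 4-hydroxylase (0.16 ± 0.05 SE; 0.15 and adjusted p = 0.0498 without replicate 1), and Adamts2, a procollagen N-proteinase (0.27 ± 0.07 SE), which did not pass without replicate 1 (0.16, adjusted p = 0.119). In the same libraries Col1a1 and Col3a1 were higher, as given above, while Col1a2 was not.

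In the list of collagen turnover and receptors, 1 rose and 8 fell of 15 tested, in 6 libraries (background 17.4% and 21.2%) and also without replicate 1 (background 15.0% and 19.1%). The median log2 fold change was -0.40, and -0.38 without replicate 1. Itgb1, the beta chain of collagen-binding integrins, fell by 0.95, Mmp14, a membrane-bound collagenase, by 0.99, Timp2, a metalloproteinase inhibitor, by 0.83 and the lysosomal protease Ctsb by 1.02 on the log2 scale (0.92, 0.98, 0.83 and 1.03 without replicate 1). The member that rose was Ctsk, cathepsin K, a protease that cuts the triple helix (1.16 ± 0.30 SE; 0.96 and adjusted p = 0.0373 without replicate 1). Among TGF-beta components and other regulators of collagen genes, 4 rose and 10 fell of 24 tested, beside 17.4% and 21.2% of all genes, so the share that rose was near the background. Without replicate 1, 3 rose and 10 fell, beside 15.0% and 19.1%. The median log2 fold change was -0.16, and -0.096 without replicate 1. Tgfb3, a ligand, fell by 1.47, Ctgf, a matricellular target of the pathway, by 1.05, Thbs1, an activator of latent ligand, by 0.76 and Ltbp2, of the latent TGF-beta binding protein family, by 0.38 on the log2 scale (1.48, 1.05, 0.74 and 0.36 without replicate 1). The members that rose were Skil, a repressor of Smad activity (0.25 ± 0.05 SE; 0.26 without replicate 1), Smad3, the signal transducer (0.27 ± 0.06; 0.32), Tgfbr3, a co-receptor (0.34 ± 0.09; 0.28), and Snai2, a transcription factor (0.33 ± 0.10), which did not pass without replicate 1 (0.27, adjusted p = 0.109).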

How the data were processed

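Counts per gene symbol were deposited by the authors as whole numbers with no normalisation, 1 file per library. Per the submitters' processing notes, the tools include Trimmomatic 0.40, HISAT2 2.2.1 and featureCounts and the build is rn6; no source used here gives the annotation or how strand and multiply mapped reads were handled. Date-like symbols (0.203% to 0.216% of counts) were left out. Counts were filtered with filterByExpr (minimum count 10, minimum total 15), scaled by TMM and tested in R 4.3.3 with edgeR 4.0.16 (quasi-likelihood F-test, two-sided, Benjamini-Hochberg over all genes), on 6 libraries and again on 5. Log2 fold changes are eIF3m siRNA over control, and the SE is the fold change divided by the square root of F. DESeq2 1.42.0 and limma 3.58.1 were alternatives. The edgeR step was tested on simulated data, with 200 genes changed in each of 3 draws. It recovered 67.7% of 1.5-fold and 81.7% of 2-fold changes, and 5.28% of its calls were false. The simulated data had no outlying library and no spread particular to a gene. In the real data 4920 of 12724 genes were called, so these rates may not hold there. Smaller changes were not simulated, so a member that did not pass may still have changed. Library shares and ratios used raw counts and exact permutation tests. Floors cover counting error only. All members are accounted for; members called with at least 5 CPM in a group get every library's value, and related lists up to 4 called genes of lowest p, with further genes that rose chosen after their values were seen. Members and lists were chosen with earlier results of these data known. Upstream sequences are those before RefSeq starts (GRCr8), and all 44 symbols matched the RefSeq gene table.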

Additional observations from a re-analysis of the deposited data

How the results depend on the processing

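Across 15 alternative settings, 12 of the 15 called members kept direction and call in each one that gave a value; the exceptions were Col16a1, Col6a1 and Col6a2. The higher count ran from 4 (robust dispersion) to 9 (no filter) and the lower count from 8 (no scaling factors) to 10 (no filter) when all 6 libraries were kept. Leaving out 1 library gave 4 to 7 higher and 9 to 11 lower. With eIF3m siRNA replicate 1 and control replicate 2 both left out, an alternative added later, 4 were higher and 10 lower. Same-numbered libraries showed no visible pairing: their deviations correlated at 0.027, -0.012 and 0.013, and only control replicate 1 correlated best with its own number. This cannot exclude paired cultures, because the blood transcripts of eIF3m siRNA replicate 1 and the low depth of replicate 2 also enter the deviations. With a replicate block the counts stayed at 6 higher and 9 lower. No scaling factors moved the median of all genes from 0.013 to 0.16. The members' median then turned to 0.020, as it did to 0.21 with no filter, where 43 members were tested; it ran from -0.15 to -0.026 without single libraries. Col6a1 missed the threshold with robust dispersion (adjusted p = 0.136), and Col6a2 with robust dispersion (adjusted p = 0.186), with DESeq2 (adjusted p = 0.142) and without control replicate 1 or 2 (adjusted p = 0.0739 and 0.0672). Col1a2 passed with no filter (-0.34, adjusted p = 2.10e-15); the cause was not tested. Members turned direction in 17 instances, all among 8 that were not called: with no scaling factors Col11a2 (0.12), Col12a1 (0.13) and Col18a1 (0.020); without control replicate 1 Col11a2 (0.075), Col7a1 (-0.16) and Col9a3 (-0.016); without control replicate 2 Col1a2 (0.046); without eIF3m siRNA replicate 1 Col12a1 (0.012) and Col7a1 (-0.054); without eIF3m siRNA replicate 3 Col11a2 (0.090), Col24a1 (0.11), Col6a3 (0.094), Col7a1 (-0.074) and Col9a3 (-0.0021); and Col7a1 with DESeq2 (-0.011), no filter (-0.032) or members left out of TMM (0). Without single libraries, the changes of these members ran from -0.11 to 0.090 for Col11a2, -0.049 to 0.012 for Col12a1, -0.53 to 0.046 for Col1a2, -0.61 to 0.11 for Col24a1, -1.07 to 0.094 for Col6a3, -0.16 to 0.098 for Col7a1 and -0.016 to 0.48 for Col9a3. The library share differed by 0.235 percentage points, and by -0.0674 without Col1a1, Col1a2 and Col3a1. The Col5a1/Col5a2 log2 ratio turned to 0.0020 without control replicate 2 and 0.020 without eIF3m siRNA replicate 2. Of the folding list, 1 gene rose without eIF3m siRNA replicate 1. The smallest library, eIF3m siRNA replicate 2, limits what can be seen below about 1.32 CPM.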
